A study of Mus musculus with 6 samples.

Results

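The genes described here are 10 components of the bone morphogenetic protein (BMP) response: the type I receptors Bmpr1a, Bmpr1b and Acvr1, the type II receptor Bmpr2, the inhibitory Smads Smad6 and Smad7, and the target genes Id1, Id2, Id3 and Id4. They were taken by name from a table of whole-transcript array intensities, with 1 probe set per gene, the brightest over all samples. All 10 were measured, among 19932 genes with a symbol, and 12 of the 28451 probe sets carry their names, since Acvr1 has 3. The samples were chondrocytes, the cells that make cartilage, from untreated wild-type ICR mice, an outbred strain. Nasal septum chondrocytes came from embryonic day 17.5 (3 biological replicates) and rib chondrocytes from postnatal day 1 (3 biological replicates), and site and age cannot be told apart in this design. The source label names chondrocytes for the rib samples and only the nasal septum for the nasal samples. Any difference in preparation could not be told apart from site and age either. The labels record neither a sort nor a culture step, and they do not give the number or sex of the animals behind a sample. The wider study concerns control of chondrocyte genes by the transcription factor Sox9, and its binding maps were not analysed here.

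BMP ligands bring type I and type II receptors together, and the type I kinase then phosphorylates Smad1, Smad5 and Smad9, which join Smad4 and act in the nucleus. The Id genes, Smad6 and Smad7 are among the genes that this signal induces. Smad6 and Smad7 act back on the pathway as inhibitors, and Id proteins bind the E proteins (Tcf3, Tcf4 and Tcf12) and keep them from DNA. In mouse cartilage the pathway is needed for chondrocytes to form, divide and enlarge, with overlapping roles for Bmpr1a and Bmpr1b.

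Among the members that passed, the receptors were higher in nasal samples and the inhibitory Smad and Id genes lower. Of the 4 receptors, Bmpr2 and Bmpr1b were higher in nasal samples, by 1.49-fold and 1.41-fold, and none was higher in rib samples. Of the 6 inhibitory Smad and Id genes, Id1, Id3 and Smad7 were lower in nasal samples, at 0.591, 0.678 and 0.694 of the rib level, and none was higher in nasal samples. Bmpr1a, Acvr1, Smad6, Id2 and Id4 did not pass. Of the Smad and Id genes among them, Smad6 (0.25) and Id2 (0.23) had positive log2 differences and Id4 (-0.15) a negative one. The test was limma on log2 intensity over all genes, with Benjamini-Hochberg adjustment and a threshold of 0.05. Across all genes 28.5% passed, 13.8% as higher in nasal and 14.7% as higher in rib, so 5 of 10 members lay above that background. The members are brighter than most genes, however, and of the 8171 genes within their level range 46.1% passed, which is near the members' share. By direction, 17.1% of these 8171 genes passed as higher in nasal and 28.9% as higher in rib, near the members' 2 and 3 of 10. The count of members called, in total or by direction, is therefore no result about these 10 genes. The values of each gene are given below.

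Over all genes the log2 differences had a median of 0.11, on the nasal side, while genes within the members' level range had a median of -0.09. Quantile normalization moved the median of all genes to -0.01. Relative to the median of all genes, Bmpr2 lay 0.46 and Bmpr1b 0.39 above it on the log2 scale. Id1 lay 0.87, Id3 0.68 and Smad7 0.64 below it (differences of -0.87, -0.68 and -0.64). Taken from the median of genes within the members' level range, the nasal offsets would be larger and the rib offsets smaller. The sizes of the offsets in the 2 directions therefore depend on the reference and are not compared. The median over the 10 members was 0.07.

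**Figure D1:**
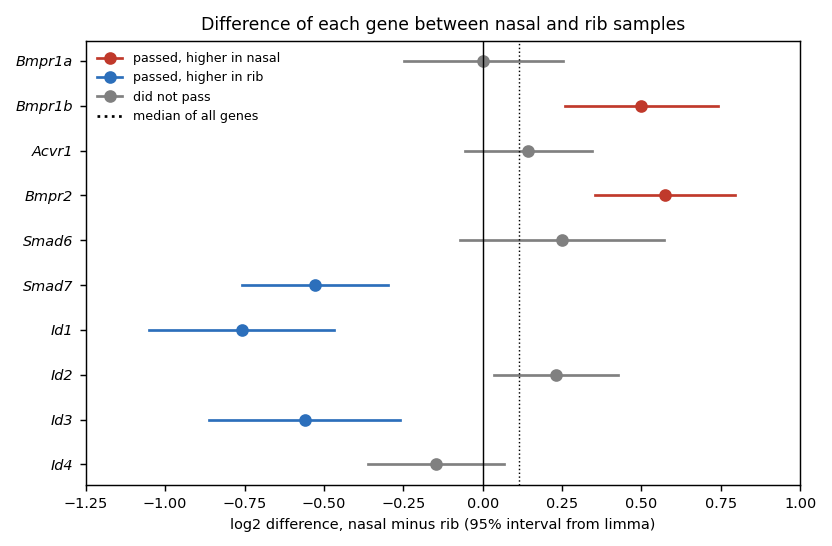
Log2 difference between nasal and rib samples (nasal minus rib, x axis) for each of the 10 genes, with the 95% interval from limma; the dotted line is the median of all genes, at 0.11. The intervals of Bmpr1b and Bmpr2 lie to the right of 0, those of Smad7, Id1 and Id3 to the left, and the interval of Id2 lies to the right of 0 although its adjusted p is 0.0780.

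Arrays of a group correlated at 0.987 to 0.993 over all probe sets and arrays of different groups at 0.957 to 0.968, as a description. Nasal replicate 1 had the highest 25th percentile, 140, against 87.3 to 108 on the other arrays, so its dim genes lay highest. All 10 chondrocyte markers lay at or above the median level of genes. Their summed intensity overlapped (79403 to 82753 in nasal, 81787 to 89178 in rib samples), but their mean log2 level did not (12.75 to 12.83 in nasal, 12.86 to 13.00 in rib), and 2, Sox9 and Comp, passed as lower in nasal. The median log2 difference of these markers was 0.0003, with 5 positive, 5 negative and the lowest at -1.50. The list as a whole was therefore not shifted to rib. Col2a1, the first chondrocyte marker listed, read 13310 to 13585 in nasal and 15402 to 16495 in rib samples. It did not pass (log2 -0.25, limma adjusted p = 0.0599). Of 10 endothelial markers, 9 lay below the median level of genes and 2, Cdh5 and Emcn, passed as higher in nasal. Their sum was 1534 to 2168 in nasal and 1174 to 1442 in rib samples, and their mean log2 level 7.20 to 7.70 in nasal and 6.79 to 7.07 in rib. Genes below the median level leaned to nasal as a whole, with a median difference of 0.22, 10.5% higher in nasal and 2.79% higher in rib. The endothelial markers had a median difference of 0.43. Skeletal muscle markers, 7 of 10 of them below the median level, had a median of 0.01. The part of gene level in the differences of the marker lists was not tested. Neither the sums (2548 to 3052 in nasal, 2007 to 2198 in rib) nor the mean log2 levels of 8 glia and neuron markers overlapped, with 3 higher in nasal. For 8 macrophage and osteoclast markers (2823 to 3026 in nasal, 2617 to 2769 in rib; 0 higher in nasal and 1, Ctsk, higher in rib) and 10 skeletal muscle markers (1634 to 2115 in nasal, 2169 to 2630 in rib; 2 higher in rib) the sums did not overlap but the mean log2 levels did. For 8 osteoblast markers the sums overlapped (4684 to 5664 in nasal, 3681 to 6366 in rib; 3 higher in nasal) but the mean log2 levels did not (8.63 to 8.81 in nasal, 8.18 to 8.48 in rib). Both measures overlapped for 10 perichondrium and fibroblast markers (sums of 26086 to 27990 in nasal, 26024 to 31369 in rib; 3 higher in rib), 8 epithelial markers (1774 to 2332 in nasal, 1846 to 2117 in rib; 1 higher in each group) and 6 erythroid markers (1753 to 7290 in nasal, 2803 to 6784 in rib; 1 higher in rib). No marker was listed at 0. In such bulk samples fewer cells of a type and less RNA per cell cannot be told apart, and the part of other cell types in the results below was not tested.

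Bmpr2, the type II receptor that pairs with each of the BMP type I receptors, read 3595, 4062 and 3750 in nasal replicates 1, 2 and 3, against 2637, 2605 and 2418 in the rib replicates. Every nasal value lay above every rib value. The geometric means were 3797 in nasal and 2551 in rib samples, a log2 difference of 0.57 (SE 0.09, 95% interval 0.35 to 0.79, limma adjusted p = 0.00449). The call held in all 14 alternative settings, with adjusted p up to 0.0248. Endothelial cells are also known to express Bmpr2, and the part of the endothelial markers given above in its difference was not tested.

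The 250 bases before the annotated start of Bmpr2 are shown because they hold a GC-rich motif, GGCGCC, read by Smad1 and Smad5, which 9.59% of 32851 such windows in the RefSeq promoter table (GRCm38.p6) contain on either strand. Capitals mark it, and it begins 105 bases before the start. The window is chr1:59764029-59764278, plus strand.
Bmpr2: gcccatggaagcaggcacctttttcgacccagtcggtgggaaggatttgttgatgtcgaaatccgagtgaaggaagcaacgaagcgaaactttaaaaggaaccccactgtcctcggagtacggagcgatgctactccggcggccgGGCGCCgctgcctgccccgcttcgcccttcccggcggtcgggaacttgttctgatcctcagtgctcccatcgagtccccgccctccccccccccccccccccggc

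Bmpr1b, a type I receptor known for its expression in cartilage condensations, read 906, 1044 and 1039 in nasal samples and 755, 670 and 687 in rib samples. The groups did not overlap, and nasal replicate 1 and rib replicate 1 were the nearest samples across the groups. This gave a log2 difference of 0.50 (SE 0.10, 95% interval 0.26 to 0.74, limma adjusted p = 0.0111). The call was lost without rib replicate 2 (adjusted p = 0.0516) and held in the other 13 alternatives. In these the limma adjusted p came as near the threshold as 0.0492, with the replicate block.

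Bmpr1a, the other main type I receptor of cartilage, read 2189, 2630 and 2665 in nasal samples against 2523, 2426 and 2495 in rib samples. Nasal replicate 1 was the lowest of the 6 samples and the other nasal values were the highest, so the groups overlapped. In log2 units the groups differed by 0.00 (95% interval -0.25 to 0.25, limma adjusted p = 0.988).

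Acvr1, the type I receptor mutated in the human disease fibrodysplasia ossificans progressiva, read 2634, 2611 and 2649 in nasal samples and 2274, 2505 and 2375 in rib samples. The nasal values were close together and all above the rib values, but the difference was small (log2 0.14, SE 0.08, 95% interval -0.06 to 0.34, limma adjusted p = 0.244). Its other probe sets, which name transcript variants of the same gene and may share probes, gave 0.16 each, with adjusted p over all probe sets of 0.223 and 0.247.

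Of the inhibitory Smads, Smad7, which acts on both BMP and TGF-beta receptors, was the member that differed. It read 1028, 929 and 1045 in nasal samples against 1487, 1504 and 1338 in rib samples, with no overlap. The log2 difference was -0.53 (SE 0.10, 95% interval -0.76 to -0.30, limma adjusted p = 0.00756), and it passed in all 14 alternatives with adjusted p up to 0.0386.

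Smad6, which acts mainly on BMP signals, read 378, 347 and 315 in nasal samples and 270, 264 and 345 in rib samples. Rib replicate 3 lay within the nasal range. The log2 difference was 0.25 (SE 0.14, 95% interval -0.07 to 0.57, limma adjusted p = 0.210), and Smad6 passed only after cyclic loess among the 14 alternatives (adjusted p = 0.0444). It is the dimmest of the 10 genes but lay above the median level of all genes, with 58.1% of genes dimmer. Differences of dimmer genes may be understated, and whether this holds at its level was not tested. Over the fits without 1 sample the difference of Smad6 ran from 0.18 without rib replicate 2 (limma adjusted p = 0.483) to 0.37 without rib replicate 3 (limma adjusted p = 0.0790). Endothelial cells are known to express Smad6, and the part of the endothelial markers in its values was not tested.

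**Figure D2:**
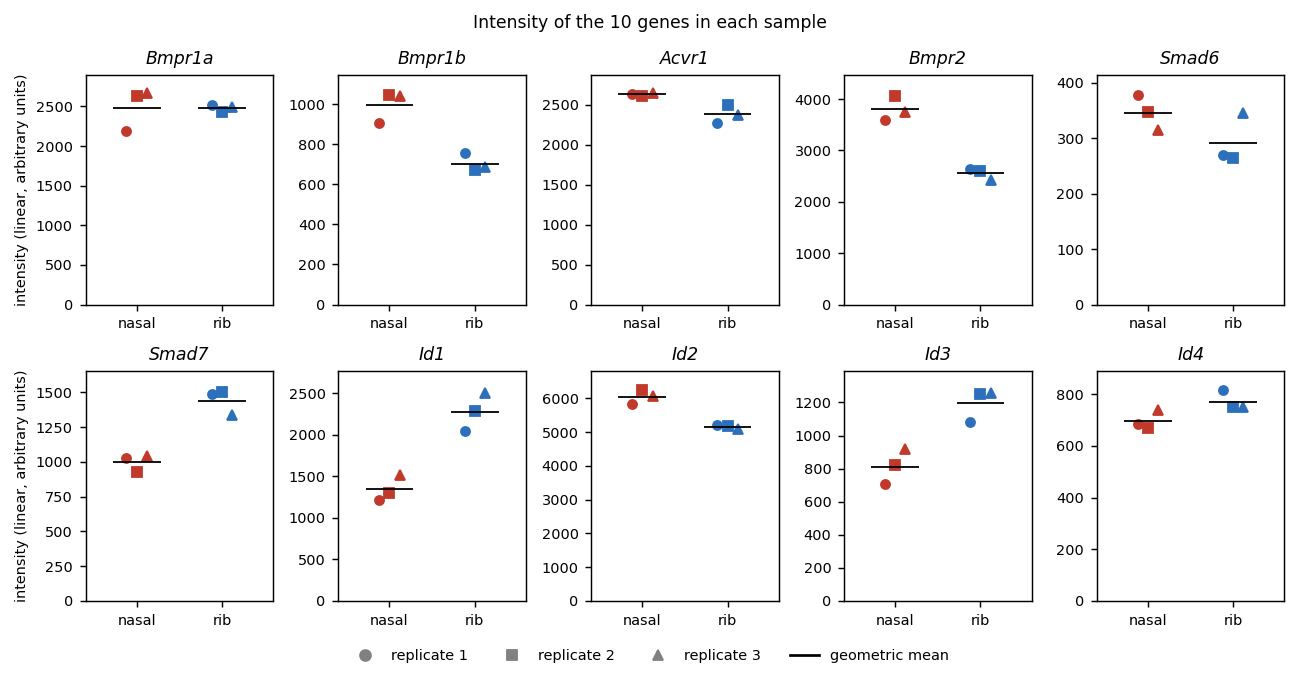
Intensity on a linear scale (y axis, from 0) of each of the 10 genes in the 3 nasal and 3 rib samples, with a marker per replicate and a line at the geometric mean of the group. Bmpr2 and Bmpr1b stand higher in all nasal samples and Smad7, Id1 and Id3 lower in all nasal samples than in any rib sample, while Bmpr1a and Smad6 overlap between groups.

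Id1 had the largest difference of the 10 genes. Its protein is a helix-loop-helix factor without a DNA-binding region, and the gene is widely used as a readout of BMP signalling. It read 1222, 1304 and 1520 in nasal samples against 2052, 2289 and 2502 in rib samples. The highest nasal value was well under the lowest rib value. The log2 difference was -0.76 (SE 0.12, 95% interval -1.05 to -0.47, limma adjusted p = 0.00449). Among all genes 8.16% had a larger absolute difference. The call held in all 14 alternatives, with differences from -0.85 to -0.69 and adjusted p up to 0.0232.

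Id3, a close relative of Id1, read 705, 820 and 920 in nasal samples against 1083, 1251 and 1260 in rib samples. The groups did not overlap, and the spread within each was wide next to that of Bmpr2. Id3 thus differed by -0.56 on the log2 scale (SE 0.13, 95% interval -0.86 to -0.26, limma adjusted p = 0.0165). The call was lost without nasal replicate 2 (adjusted p = 0.0535), without rib replicate 2 (adjusted p = 0.0646), without rib replicate 3 (adjusted p = 0.0591) and in an unmoderated test (adjusted p = 0.0532), and the sign was kept in each. Endothelium is also known to express Id1 and Id3. Of its 10 markers 2 passed as higher in nasal and 0 as higher in rib, and their part in the values of Id1 and Id3 was not tested.

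Id2, which is also controlled by signals other than BMP, read 5839, 6249 and 6073 in nasal samples and 5211, 5177 and 5086 in rib samples. Every nasal value was above every rib value, the reverse of Id1 and Id3. This difference of 0.23 on the log2 scale (SE 0.08, 95% interval 0.04 to 0.42) did not pass after adjustment (limma adjusted p = 0.0780). It passed in 4 of 14 alternatives, with adjusted p from 0.0140 to 0.385 over them.

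Id4, the member known best from the nervous system and from osteoblast differentiation, read 684, 669 and 737 in nasal samples and 816, 748 and 751 in rib samples. The groups touched without overlapping, since nasal replicate 3 and rib replicate 2 were close. Their log2 difference was -0.15 (SE 0.09, 95% interval -0.36 to 0.07, limma adjusted p = 0.259). Groups did not overlap for 8 of the 10 members in all, against 45.7% of all genes, with Bmpr1a and Smad6 as the exceptions. That share was not counted among genes within the members' level range, so the count of 8 is not read as an excess.

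The windows before the starts of Id2, Id3 and Id4 are shown so that the member that passed, Id3, can be read beside relatives that did not. Windows were matched for 8 of the 10 members, all but Id1 and Smad7. Capitals mark GGCGCC and the 4-base core of the Smad-binding palindrome, GTCT or its reverse complement AGAC, which 82.9% of all windows hold. The windows are 250 bases long, from RefSeq (GRCm38.p6), at chr12:25096093-25096342 on the minus strand for Id2, chr4:136143572-136143821 on the plus strand for Id3 and chr13:48260866-48261115 on the plus strand for Id4.
Id2: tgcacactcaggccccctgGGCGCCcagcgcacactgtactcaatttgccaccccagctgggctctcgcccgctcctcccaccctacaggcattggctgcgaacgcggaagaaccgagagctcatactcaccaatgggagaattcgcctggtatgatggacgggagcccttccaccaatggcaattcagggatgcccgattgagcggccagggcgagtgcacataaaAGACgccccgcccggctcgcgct
Id3: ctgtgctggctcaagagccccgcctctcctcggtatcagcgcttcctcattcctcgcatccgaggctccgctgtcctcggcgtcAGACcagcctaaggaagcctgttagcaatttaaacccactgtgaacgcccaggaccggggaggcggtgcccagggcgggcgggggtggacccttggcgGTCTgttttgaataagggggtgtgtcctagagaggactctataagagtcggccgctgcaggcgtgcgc
Id4: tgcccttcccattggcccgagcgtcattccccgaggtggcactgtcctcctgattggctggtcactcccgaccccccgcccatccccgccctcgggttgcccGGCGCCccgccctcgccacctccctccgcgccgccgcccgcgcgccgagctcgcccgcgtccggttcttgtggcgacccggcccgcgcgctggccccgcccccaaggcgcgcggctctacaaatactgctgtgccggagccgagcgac

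GGCGCC occurred in the windows of Id2, at 231 bases before the start, and of Id4, at 148 bases, and not in that of Id3. Id3 held 2 GTCT cores, 166 and 68 bases before the start, Id2 held 1 at 23 bases, and Id4 held none. TGACG, a part of the cyclic AMP response element, was found in 17.8% of all windows and in those of Id3 and Id4. CANNTG, the E-box that E proteins bind, was found in 66.2% of all windows and once in that of Id2. The motifs in capitals did not overlap, but the TGACG match of Id3, read on the minus strand, shared 1 base with a GTCT core. The other windows of members varied as much: Bmpr1a held 1 GGCGCC, Acvr1 and Smad6 1 GTCT core each, and the 3 annotated starts of Bmpr1b 2, 6 and 3 GTCT cores. These are letter matches in short windows and say nothing of factor binding.

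Id1 and Id3 had similar profiles over the samples. The log2 ratio of Id1 to Id3 was still lower in nasal than in rib samples (difference -0.20), with no overlap. Centred on its own mean over the 6 samples, Id1 stood at -0.52, -0.42 and -0.20 on the log2 scale in nasal samples and 0.23, 0.39 and 0.52 in rib samples. Id3 stood at -0.48, -0.26 and -0.10 in nasal and 0.14, 0.35 and 0.36 in rib samples. In both genes replicate 1 was the lowest and replicate 3 the highest sample of each group. The root mean square difference between these profiles was 0.11, and 128 of 17375 other named genes lay closer to Id1 than Id3 did. Smad7 shared the direction but not the order, with its lowest nasal value in replicate 2 and its lowest rib value in replicate 3. Bmpr1b and Bmpr2 also had close profiles, with a root mean square difference of 0.07 and 111 genes closer to Bmpr1b. These distances describe 6 arrays that share their normalization.

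**Figure D3:**
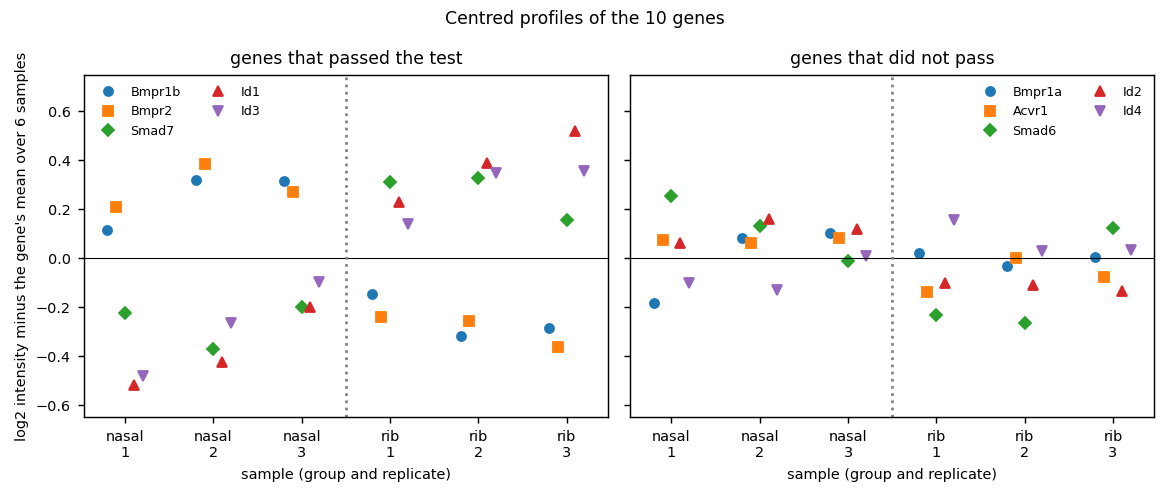
Log2 intensity of each gene minus its own mean over the 6 samples (y axis) in each sample (x axis), for the genes that passed (left) and those that did not (right). On the left Bmpr1b and Bmpr2 lie above 0 in the nasal samples and Smad7, Id1 and Id3 above 0 in the rib samples, with Id1 reaching 0.52 in rib replicate 3.

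Within each sample, the log2 ratio of Id1 to Bmpr2 was 1.33 lower on average in nasal than in rib samples (difference -1.33), and that of Id1 to Id2 was 0.99 lower (difference -0.99). The groups did not overlap for either ratio, which follows in both from the non-overlapping values of the genes in opposite directions. A ratio to another gene of the array shows unequal change and does not say which gene changed. The ratios are given as a description and were not tested.

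The genes most like each called member, by the same distance, were as follows. Arhgef2 was nearest to Id1 (0.05), with geometric means of 649 in nasal and 1067 in rib samples, followed by Rcor3. Ccm2, an adaptor protein of endothelial junctions, was nearest to Id3 (0.03; 838 in nasal and 1187 in rib), followed by Manbal. Zfp384 and Tmem185b were nearest to Smad7. Rbm39, a splicing factor, and Thoc2l were nearest to Bmpr2, and Prr5l and Micos10 to Bmpr1b. With 6 samples in 2 groups, many genes come close to any such profile.

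Around these members, 38 of 70 other listed pathway genes passed, 24 as higher in nasal and 14 as higher in rib, with a median difference of 0.08 against 0.11 for all genes. That share, 54.3%, compares with 28.5% of all genes and 46.1% of genes in the members' level range. By direction, 13.8% of all genes passed as higher in nasal and 14.7% as higher in rib. Some listed genes, such as Gdf6, lie below the members' level range, and the lists were written with earlier results known. The counts, here and by role below, are therefore not read as an excess.

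Among 13 other receptors and co-receptors, 3 passed as higher in nasal and 2 as higher in rib, and the median was 0.05. The activin type I receptor Acvr1b read 598, 642 and 619 in nasal against 264, 280 and 308 in rib samples (log2 1.13, SE 0.10, limma adjusted p = 0.000433). Eng, the co-receptor endoglin, also an endothelial gene, read 1182, 1165 and 1271 in nasal samples against 614, 633 and 692 in rib samples (0.90, SE 0.09). Tgfbr1 was higher in nasal as well (0.56, SE 0.08). Bambi, a pseudoreceptor that BMP signals induce and that dampens them, read 620, 740 and 855 in nasal and 1543, 1485 and 1440 in rib samples, with no overlap (-1.02, SE 0.13, limma adjusted p = 0.00174). The co-receptor Tgfbr3 was also lower in nasal (-0.93, SE 0.10). The BMP type I receptor of endothelium, Acvrl1, did not pass (258 in nasal, 199 in rib, adjusted p = 0.216), nor did the type II receptors Acvr2a (-0.09) and Acvr2b (0.10). Acvrl1, Acvr2a and Acvr2b are outside the naming rule and were chosen after their values were seen.

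Of the 6 receptor-activated and common Smads, 2 passed as higher in nasal and 1 as higher in rib, with a median of 0.13. Smad3, which carries TGF-beta and activin signals, differed most, with 2880, 2661 and 2820 in nasal against 778, 820 and 862 in rib samples (1.77, SE 0.09, limma adjusted p = 9.79e-05). Smad4, the common partner, was higher in nasal (0.36, SE 0.08) and the BMP-activated Smad9 lower (-0.37, SE 0.09), but they passed in 8 and 9 of 14 alternatives. The BMP-activated Smad1 (0.03) and Smad5 (0.23) and the TGF-beta-activated Smad2 (-0.05) did not pass and are named outside the rule. Of 12 regulators of Smads, 5 were higher in nasal and 2 in rib, with a median of 0.07. The ubiquitin ligases Nedd4l (0.98, SE 0.09), Smurf2 (0.43, SE 0.10) and Smurf1 (0.41, SE 0.10) and the Smad-binding repressor Zeb2 (0.78, SE 0.12) were higher in nasal, and Tob2 (-0.49, SE 0.11) and the corepressor Skil (-0.34, SE 0.09) were lower. Smurf1 and Skil passed in 7 of 14 alternatives each, Tob2 in 10 and Smurf2 in 11.

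**Figure D4:**
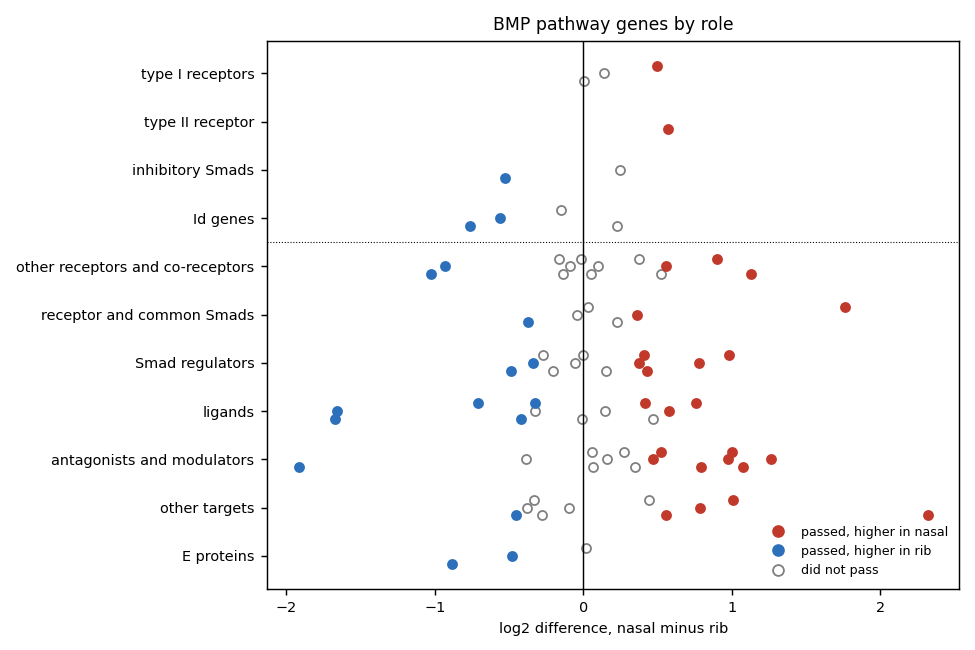
Log2 difference, nasal minus rib (x axis), of the 10 genes (above the dotted line) and of 70 other pathway genes by role (below it), with a point per gene; vertical offsets within a role only separate points. The points furthest to the rib side are the antagonist Grem1 (-1.92) and the ligands Bmp4 (-1.67) and Bmp6 (-1.66). Of 14 antagonists 7 passed as higher in nasal, beside 13.8% of all genes, and this count is not read as an excess.

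Upstream of the receptors, 3 of 12 ligands were higher in nasal and 5 in rib, with a median of -0.17. Bmp6 read 1493, 1502 and 1812 in nasal and 5075, 5030 and 5022 in rib samples (-1.66, SE 0.11), and Bmp4 read 467, 483 and 554 in nasal samples against 1539, 1565 and 1669 in rib samples (-1.67, SE 0.10). Gdf5, a ligand of developing joints that signals through Bmpr1b, was lower in nasal (-0.71, SE 0.12), as was Bmp5 (-0.42, SE 0.10, 11 of 14 alternatives), while Bmp3 (0.76, SE 0.12), Gdf10 (0.58, SE 0.09) and Gdf6 (0.42, SE 0.13, 3 of 13 alternatives) were higher. Of 14 antagonists and modulators, 7 were higher in nasal and 1, Grem1 (-1.92, SE 0.13), lower, with a median of 0.41. Fstl1 read 5977, 5786 and 6232 in nasal and 2044, 2904 and 2607 in rib samples (1.27, SE 0.14), beside Chrdl2, Bmper and Chrdl1 (0.97 to 1.07).

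Other known BMP targets were divided, 5 with a positive and 5 with a negative difference. Of these 10, 4 were higher in nasal and 1 in rib, with a median of 0.17. Hey1, a target of Notch as well, read 2509, 3167 and 3193 in nasal against 633, 595 and 540 in rib samples (2.32, SE 0.13, limma adjusted p = 0.000116). The homeobox genes Msx2 (1.01, SE 0.10) and Msx1 (0.56, SE 0.14) and the repressor Hes1 (0.78, SE 0.18) were higher in nasal, and Ihh, the hedgehog ligand of prehypertrophic cells, was lower (-0.45, SE 0.11). The calls of Msx1, Hes1 and Ihh held in 10, 8 and 8 of 14 alternatives.

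The E proteins, which Id proteins bind, were listed as 3 genes, and 2 passed as lower in nasal. Tcf3 read 504, 414 and 485 in nasal and 826, 873 and 886 in rib samples (-0.89, SE 0.11, limma adjusted p = 0.00133), and Tcf4 read 1896, 2101 and 1974 in nasal samples against 2740, 2838 and 2731 in rib samples (-0.48, SE 0.09, limma adjusted p = 0.00698). Neither overlapped between groups. Tcf12 read 1742, 1975 and 2028 in nasal and 2167, 1771 and 1756 in rib samples and overlapped (0.02, SE 0.12, adjusted p = 0.928).

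**Figure D5:**
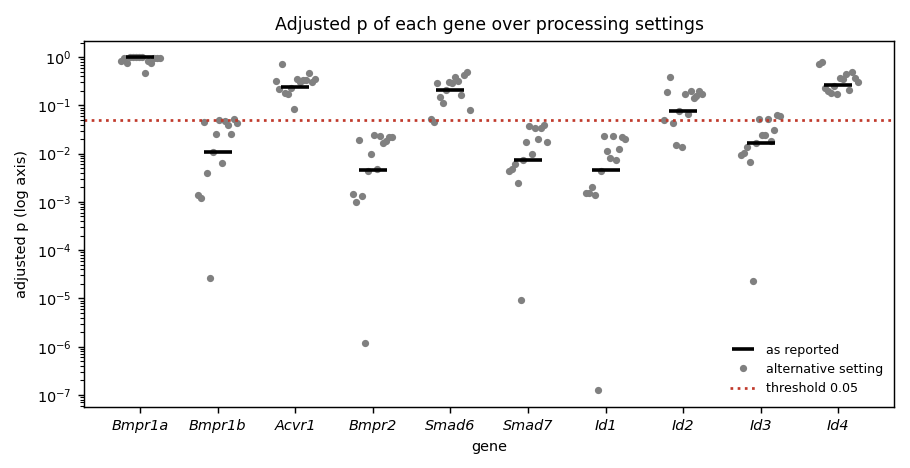
Adjusted p (log y axis) of each of the 10 genes as reported (bar) and in 14 alternative settings (grey points), with the threshold of 0.05 dotted. Bmpr2, Smad7 and Id1 stay under the threshold in all 14 settings, Bmpr1b in 13 and Id3 in 10, while Id2 falls under it in 4 and Smad6 in 1.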

How the data were processed

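Total RNA (300 ng per sample) from chondrocytes was, per the labels' protocols, labelled with Affymetrix whole-transcript kits and hybridised to 6 arrays. The values deposited by the authors are linear intensities, and the submitters' processing notes name RMA without a version. The mean after trimming 2% at each end was 500 on every array, while lower quantiles differed, so the RMA steps applied cannot be named. No detection calls were used. Brightness relative to all genes describes the arrays only, since probe sets differ in sensitivity, and is no comparison of transcript amounts.

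Values were converted to log2 with no pseudocount. Of 28451 probe sets, 24935 matched 1 gene symbol and 3516 none through RefSeq accessions (GRCm38.p6, names only), giving 19932 genes. Nasal minus rib was fitted with limma 3.58.1 in R 4.3.3 on all genes, without covariates, with Benjamini-Hochberg adjustment. The fit was tested on simulated data. The labels do not say whether replicates came from separate animals or litters, so p-values measure the spread between these samples. Members and gene lists were chosen with earlier results of these data known. All members are named. From each other pathway list up to 4 called genes per direction were named, largest difference first, and the brightest where none passed. Marker lists are described by counts, summed levels and mean log2 levels, with Col2a1, the first chondrocyte marker. Sox9, Comp, Cdh5, Emcn and Ctsk were named after their values were seen. For each called member the 2 most similar genes were named, leaving out predicted, clone and small RNA names. Hba-a1, Ahsp and Cd68 of the marker lists matched no probe set.

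Alternatives were quantile normalization, cyclic loess, median centring, a filter at the 25th percentile of gene level, eBayes with trend and robust, the mean of probe sets, an unmoderated test, a replicate block and leaving out each sample.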

Additional observations from a re-analysis of the deposited data

How the results depend on the processing

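The calls of Bmpr2, Smad7 and Id1 kept their direction and side of the threshold in all 14 alternatives. The count of members higher in nasal was 2 as reported and 1 to 2 over the fits without 1 sample, with 1 without rib replicate 2. It was 3 after quantile normalization, with the 25th percentile filter, with trend and robust and in the unmoderated test, each through Id2, and 3 after cyclic loess through Smad6. The count higher in rib was 3 as reported and 2 to 3 over the fits without 1 sample. Bmpr1a, whose difference was near 0, changed sign after quantile normalization (-0.028), cyclic loess (-0.0038) and median centring (-0.071) and in 3 of the 6 fits without 1 sample, namely without nasal replicate 2 (-0.039), nasal replicate 3 (-0.048) or rib replicate 2 (-0.014), within a range of -0.048 to 0.094 over those 6. The cause was not tested. Of the 70 other pathway genes, 24 were higher in nasal (18 to 24 without 1 sample) and 14 in rib (8 to 15 without 1 sample, with 9 without nasal replicate 2 and 8 without rib replicate 2). Over all genes 5683 passed, against 3466 without rib replicate 2 and 3837 without nasal replicate 2. The labels do not say whether replicate numbers pair the samples. Deviations of same-numbered nasal and rib samples correlated at -0.02, 0.22 and -0.28, and those of differently numbered ones at -0.37 to 0.38. Deviations from the mean of 3 samples constrain each other, so these values cannot decide on pairing. With the replicate block, 2 members were higher in nasal and 3 in rib as before, 9 of the other pathway genes were higher in rib and 3903 genes passed in all. The 25th percentile filter removed Gdf6 and Acvr1c, so they have no value there. With no measure of background per gene, how far differences of dimmer genes are compressed is not known, nor whether this reaches Smad6, the dimmest member.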
